A study of Mus musculus with 3 samples.

Results

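The genes described here are 45 genes of mitosis and the kinetochore, taken by name from the 25638 gene symbols of the deposited count table, where each of the 45 has a row. The series holds RNA-seq read counts of CD8+ T cells sorted from mouse spleen, 1 library each of naive, central memory and effector memory cells, all 3 labelled wild type and untreated. The age, strain and number of animals behind a library, and the markers used for sorting, are not stated in the labels. With 1 library a group there is no replicate spread, so no p-value was computed: each comparison is the ratio of CPM (read counts scaled to effective library size) between 2 libraries, and its 95% interval covers counting error only. The words higher and lower are kept for genes that differed by 2-fold or more, with an interval that leaves out 1 and 5 CPM or more on the higher side.

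As background, mitosis is driven by CDK1 bound to cyclins A and B, and by the Polo and Aurora kinases. Condensin and topoisomerase II compact and untangle the chromosomes, the kinetochore ties each centromere to spindle microtubules, and the spindle checkpoint holds back the anaphase-promoting complex (APC/C) until every kinetochore is attached. Most genes of this machinery are transcribed late in the cell cycle and are silent in resting cells. Naive CD8+ T cells rest until they meet antigen, while memory cells are known to turn over slowly and to divide again on restimulation.

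The libraries held 26876909 (naive), 35846315 (central memory) and 33087462 (effector memory) counts, and 0 counts in a library allow up to 0.108, 0.0837 and 0.0938 CPM (3 counts). Cd3e, a chain of the T cell receptor complex, stood at 395, 418 and 335 CPM in that order, and Cd8a at 1868, 1063 and 408 CPM. Cd44, which marks antigen-experienced T cells, was at 2.95, 45.8 and 113 CPM, and Ccr7, a lymph node homing receptor, at 373, 339 and 31.9 CPM. The libraries also differed in receptor use: Trbv12-1 made up 7.13%, 99.6% and 98.4% of Trbv counts. Among markers of other cells, 4 NK genes summed to 0.575, 64.8 and 14.4 CPM, and 7 B cell genes to 33.4, 6.62 and 2.91 CPM. Of the NK genes, Klrb1c stood at 0.216, 33.0 and 1.91 CPM and Ncr1 at 0, 12.2 and 0 CPM. Klre1 was at 0.0719, 11.7 and 2.03 CPM, whereas Fcer1g was highest in effector memory, at 0.288, 7.96 and 10.4 CPM. Markers of 2 dividing blood lineages were near 0 throughout: 8 erythroid genes summed to 1.65, 1.12 and 2.28 CPM, and 6 genes of granulocytes and their progenitors to 0.0719, 0 and 0.313 CPM. The 7 macrophage and dendritic cell genes summed to 9.06, 6.39 and 33.6 CPM: Cd68 stood at 3.38, 4.05 and 21.1 CPM and Xcr1 at 2.01, 1.56 and 12.3 CPM, Lyz2, Csf1r and Zbtb46 were lowest in effector memory (0, 0 and 0.250 CPM), and Adgre1 and Siglech were at 0 in every library. The 6 thymocyte and stem cell genes summed to 4.10, 24.4 and 28.0 CPM, of which Kit made 0.467, 23.8 and 26.9 CPM and Dntt 3.63, 0.614 and 1.13 CPM, with the other 4 at 0 throughout. The part of NK cells and of other cells with Kit, Cd68 or Xcr1 in the values below was not tested. Receptor use set both memory libraries apart from naive, so in comparisons against naive it cannot be told apart from the cell subset.

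The mitosis genes were lowest in naive, intermediate in central memory and highest in effector memory, with few exceptions. Together they made up 0.0373%, 0.212% and 1.09% of all counts in the naive, central and effector memory libraries (exact 95% binomial intervals 0.0366% to 0.0380%, 0.211% to 0.214% and 1.087% to 1.094%). In summed CPM this was 360.4, 2124 and 11278. The median member stood at 0.827, 25.1 and 171.7 CPM. A total over a library cannot tell a larger share of dividing cells from more mitotic transcripts in each of them.

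**Figure D1:**
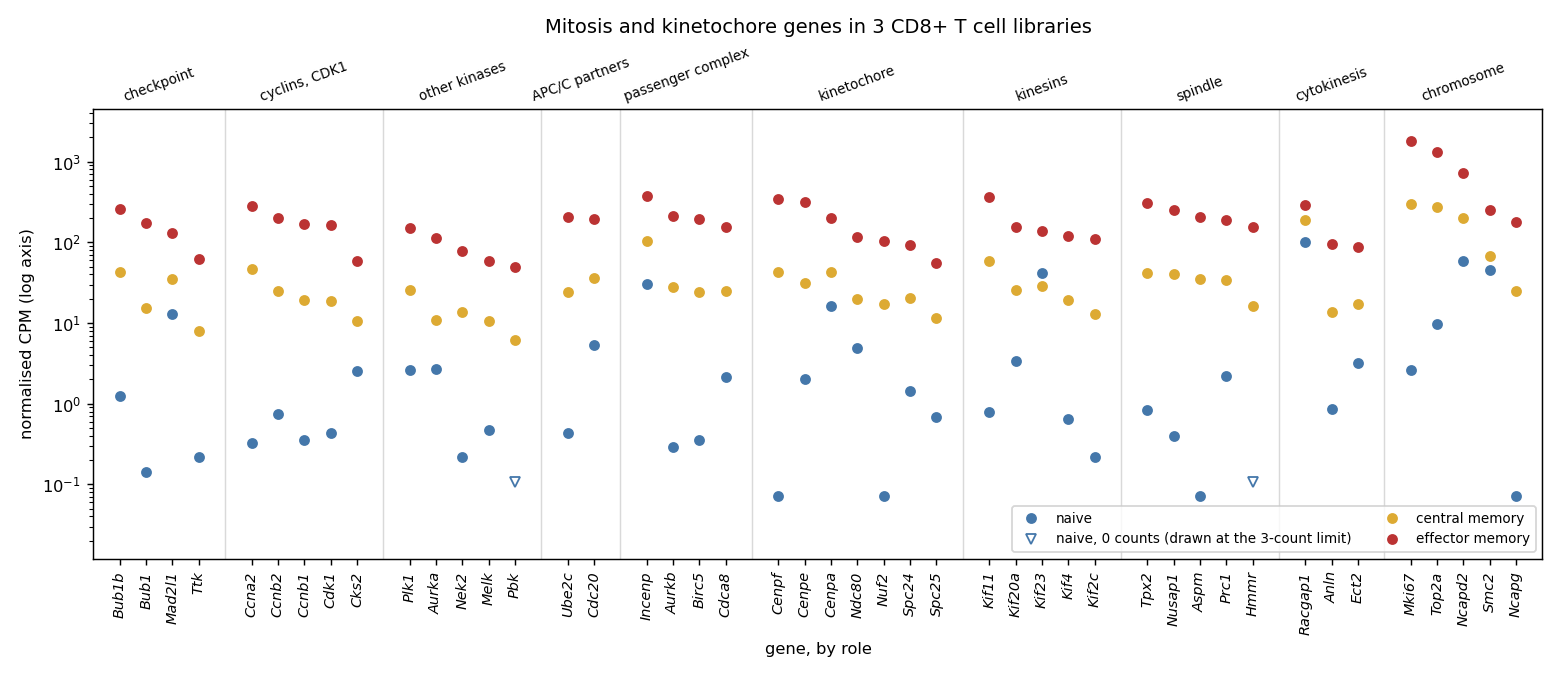
Normalised CPM (log axis) of the 45 mitosis genes in the naive (blue), central memory (yellow) and effector memory (red) libraries, 1 point per gene and library, ordered by role; open triangles are genes with 0 counts drawn at the limit of 3 counts. Every gene is highest in effector memory, where the lowest, Pbk, stands at 49.1 CPM, and Kif23 is the one gene with a higher point in naive than in central memory.

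Against naive, 42 of the 45 genes were higher in central memory and none was lower, beside 11.2% of the 9737 genes tested that were called higher and 5.12% called lower. All 45 were higher in effector memory than in naive, where 22.3% of 10087 genes were called higher and 15.6% lower. Between the memory libraries 44 of 45 were higher in effector memory, beside 14.8% of 9975 genes called higher and 12.8% called lower. The median log2 ratio of the 45 genes was 4.90, 7.55 and 2.59 in these 3 comparisons, beside 0.14, 0.06 and -0.06 over all genes tested. By at least 4-fold, 38, 43 and 40 of the 45 were higher, beside 5.23%, 11.2% and 6.37% of the genes tested, and none was lower, beside 1.98%, 5.19% and 2.9%. The comparisons share libraries, so they are not independent of each other. The 45 genes and the calling rules were chosen with earlier results of these data known, so these counts describe the list and test nothing. All 45 genes passed the minimum of 5 CPM in each comparison through the memory libraries, since each reached 6.17 CPM or more in central memory, whereas 9 reached 5 CPM in naive.

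**Figure D2:**
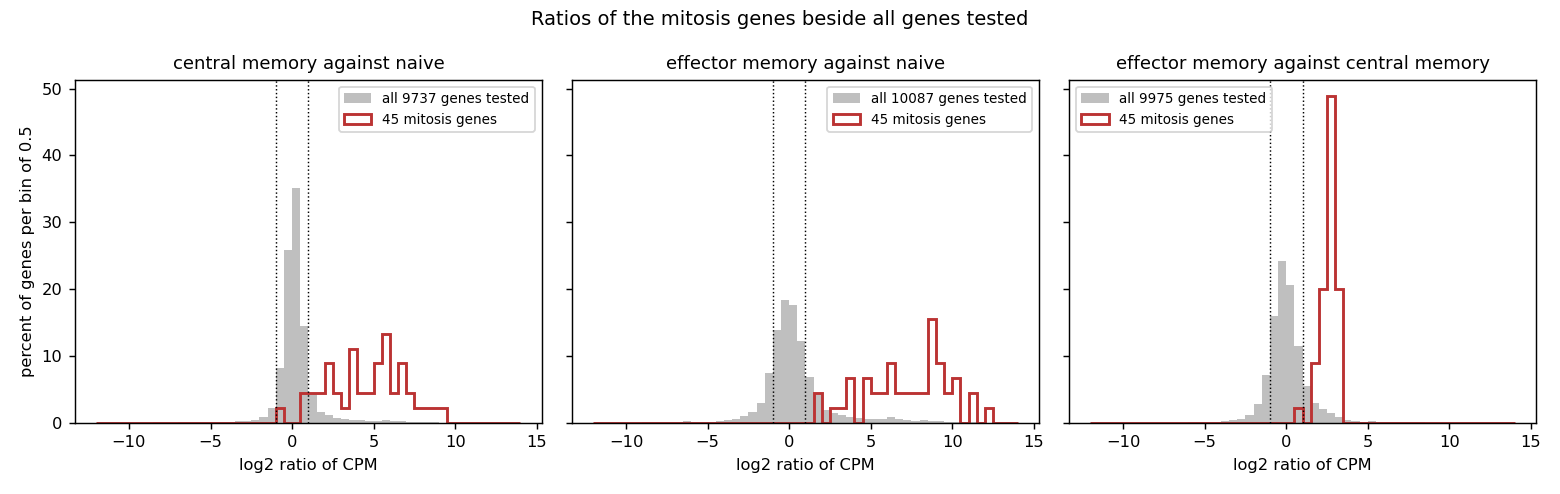
Percent of genes per bin of 0.5 in the log2 ratio of CPM, for all genes tested (grey) and the 45 mitosis genes (red line), in the 3 comparisons; dotted lines mark a 2-fold difference, and genes with 0 counts in 1 library enter at a bound of 3 counts. The mitosis genes spread widely against naive and narrowly between the memory libraries, from 1.51-fold to 11.1-fold.

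What these genes share outside the count table was looked for in their promoters. Genes of late cell cycle are known for 2 promoter elements: the cell cycle genes homology region, with the core TTTGAA, which is bound by the DREAM repressor in resting cells and by MYBL2 with FOXM1 in dividing ones, and the CCAAT box, bound by NF-Y. RefSeq promoters on GRCm38.p6, running from 250 bases before to 50 after the start site, were matched for 38 of the 45 genes, with 40 start sites. TTTGAA, read on both strands, was in 30 of the 40 windows (75%), beside 17.9% of all 32851 promoters and 11.96% of the 10247 promoters of genes at 5 CPM or more in any library. CCAAT, also read on both strands, was in 32 of 40 (80%), beside 37.4% and 38.3%, and both together in 27 (67.5%), beside 6.95% and 4.97%. Other mitosis genes, listed further below, had 120 promoters matched to 103 genes. Among these promoters the shares were 33.3% for TTTGAA, 53.3% for CCAAT and 21.7% for both, between those of the 45 genes and those of all promoters. The variants TTCGAA and TTTAAA were in 3 and 10 of the 40 windows (7.5% and 25%), beside 1.56% and 13.2% of all promoters. Of the sequences searched, TTCGAA and TTTAAA read the same on both strands.

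In 28 of the 40 windows (70.0%) TTTGAA lay in the last 100 bases before the start site or the 50 after it, beside 25% of the promoters of other mitosis genes, 8.01% of all promoters and 4.76% of those of genes at 5 CPM. The following runs of 30 bases are shown so that its place can be compared across roles: for each role except the passenger complex, the gene with the highest effector memory CPM among those whose whole run fits in that span (the runs of Bub1b and Mki67 reach past its ends), and in addition Kif23, whose levels depart from the rest. The 6 bases of the motif are in capitals, all runs are on the strand of the gene, and TTCAAA is the motif read on the other strand.
Ttk (chr9:83834684-83834713, plus strand): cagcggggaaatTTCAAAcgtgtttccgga
Ccnb2 (chr9:70421533-70421562, minus strand): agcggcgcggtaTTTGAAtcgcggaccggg
Plk1 (chr7:122159453-122159482, plus strand): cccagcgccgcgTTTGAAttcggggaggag
Ube2c (chr2:164769888-164769917, plus strand): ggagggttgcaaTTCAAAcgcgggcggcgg
Cenpf (chr1:189688067-189688096, minus strand): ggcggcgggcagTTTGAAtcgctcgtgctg
Kif11 (chr19:37376351-37376380, plus strand): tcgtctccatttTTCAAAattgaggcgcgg
Aspm (chr1:139454767-139454796, plus strand): ggaggcgcgataTTTGAAccgagcaaaagc
Racgap1 (chr15:99651634-99651663, minus strand): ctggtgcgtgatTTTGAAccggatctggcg
Top2a (chr11:99024195-99024224, minus strand): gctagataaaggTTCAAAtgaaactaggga
Kif23 (chr9:61946780-61946809, minus strand): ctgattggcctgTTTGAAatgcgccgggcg
The first base of the motif lay at position 5 after the start site in Ccnb2, 3 in Cenpf and Kif23, 6 in Racgap1 and 7 in Aspm. It lay at position 8 in Ttk and 31 in Plk1, and before the start site at -19 in Kif11, -23 in Top2a and -29 in Ube2c. Its place thus varied among the runs shown. Racgap1 and Kif23, which had the highest and the fifth highest naive levels per kilobase of exon among the 45 genes, thus hold the same letters as genes near 0 in naive. The 28 genes with TTTGAA anywhere in the whole window and the 10 without it had median ratios between the memory libraries of 6.03 and 6.16. Their median naive levels were 1.71 and 0.377 CPM.

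CCAAT boxes often came in pairs. At least 2 were in 22 of the 40 windows (55%), beside 25% for the other mitosis genes and 11.7% of all promoters, and in 10 of them a pair lay 30 to 36 bases apart (25% of the 40, beside 1.87% of all promoters). The distance range was chosen after the sequences were seen. The last 100 bases before the start site are given for 2 genes with repeated boxes, with CCAAT or its reverse complement ATTGG in capitals.
Ccnb2 (chr9:70421555-70421654, minus strand): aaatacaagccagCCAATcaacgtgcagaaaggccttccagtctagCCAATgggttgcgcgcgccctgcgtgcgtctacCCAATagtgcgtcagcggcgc
Hmmr (chr11:40733438-40733537, minus strand): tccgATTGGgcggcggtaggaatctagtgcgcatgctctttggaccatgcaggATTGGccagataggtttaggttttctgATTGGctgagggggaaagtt
In Ccnb2 the boxes began at positions -87, -54 and -21 and in Hmmr at -96, -47 and -20. A match of letters is a description of the sequence, and the binding of a factor was not measured.

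The checkpoint genes among the 45 were higher in both memory libraries, with Mad2l1 starting from a much higher naive level than the rest. Bub1, the kinase that recruits checkpoint proteins to the kinetochore (ENSMUSG00000027379.13, chromosome 2, 127801122 to 127831865, GENCODE M21 on GRCm38), stood at 0.144, 15.5 and 172 CPM in the naive, central and effector memory libraries, the order kept for all values that follow. Its ratio between the memory libraries, 11.1 (interval 10.2 to 12.1), was the largest of the 45. Bub1b, which encodes the checkpoint protein BUBR1, was at 1.26, 43.4 and 261 CPM. Ttk, the kinase MPS1 that starts checkpoint signalling, was at 0.216, 8.01 and 62.3 CPM. Mad2l1, whose product MAD2 binds and holds CDC20 (ENSMUSG00000029910.14, chromosome 6, 66535390 to 66547220), was at 12.9, 35.2 and 129.7 CPM. It was 2.73-fold higher in central memory than in naive (interval 2.42 to 3.07) and 10.1-fold higher in effector memory (interval 9.02 to 11.2), against 207.7-fold or more for the other checkpoint genes of the list.

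The mitotic cyclins and their kinase were nearly silent in naive. Ccna2 (cyclin A2) stood at 0.323, 46.9 and 279 CPM, and was 145-fold higher in central memory than in naive (interval 76.2 to 318). Ccnb1 (cyclin B1, ENSMUSG00000041431.16, chromosome 13, 100778650 to 100786570) was at 0.359, 19.2 and 169 CPM. Ccnb2 was at 0.755, 25.04 and 198 CPM. Their partner Cdk1 (ENSMUSG00000019942.13, chromosome 10, 69335146 to 69352938) was at 0.431, 18.7 and 166 CPM. Its ratio between the memory libraries was 8.90 (interval 8.21 to 9.66), that of Ccnb1 8.82 (interval 8.15 to 9.57), and that of Ccna2 5.96 (interval 5.65 to 6.28). The intervals of Cdk1 and Ccnb1 overlapped, and that of Ccna2 lay below both. Cks2, a small CDK-binding subunit, had a higher naive level and smaller ratios, at 2.52, 10.5 and 58.1 CPM.

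The other mitotic kinases among the 45 were also higher in both memory libraries. Plk1, the Polo-like kinase that acts from mitotic entry to cytokinesis, stood at 2.59, 25.8 and 149 CPM. Aurka, the Aurora kinase of the spindle poles (ENSMUSG00000027496.15, chromosome 2, 172356190 to 172370535), was at 2.66, 10.8 and 113 CPM. The differences of the pair were not alike: Aurka was 4.04-fold above naive in central memory (interval 3.14 to 5.26) and Plk1 9.96-fold (interval 7.83 to 12.8). From central to effector memory the order was the other way, with 10.5-fold for Aurka (interval 9.48 to 11.7) and 5.77-fold for Plk1 (interval 5.38 to 6.20). Nek2, a kinase that separates centrosomes, was at 0.216, 13.6 and 78.6 CPM. Melk, a kinase raised in dividing cells, was at 0.467, 10.5 and 59.5 CPM. Pbk, a mitotic kinase also called TOPK, had 0 counts in naive and stood at 6.17 and 49.1 CPM in the memory libraries, at least 57.2-fold and at least 456-fold higher than in naive.

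Both APC/C partners in the list were higher in memory. Cdc20, the activator that the checkpoint restrains (ENSMUSG00000006398.15, chromosome 4, 118432901 to 118437352), stood at 5.32, 36.6 and 196 CPM. Ube2c, the ubiquitin-conjugating enzyme that works with the complex, was at 0.431, 24.4 and 207 CPM. Per kilobase of exon they stood at 105 and 79.4 in effector memory. In naive Cdc20 was above the 5 CPM minimum, and Ube2c had 12 counts.

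In the chromosomal passenger complex, which corrects faulty attachments and later guides cytokinesis, the scaffold gene differed from the other subunits. Incenp, the scaffold (ENSMUSG00000024660.9, chromosome 19, 9872296 to 9899551), was at 30.9, 104 and 374 CPM. Aurkb, its kinase, was at 0.288, 28.1 and 213 CPM. Birc5, which encodes survivin, was at 0.359, 24.1 and 194 CPM. Cdca8, which encodes borealin, was at 2.16, 25.1 and 154 CPM. Incenp was 3.38-fold above naive in central memory (interval 3.13 to 3.64), and Aurkb 97.7-fold (interval 49.4 to 227). Between the memory libraries their ratios were 3.59 (interval 3.46 to 3.73) and 7.60 (interval 7.11 to 8.13).

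Per kilobase of exon, on which levels of different genes can be compared, Incenp made up 92.0% of the summed level of the 4 subunits in naive, then 52.9% and 35.2% in the memory libraries. The highest subunit stood 73.1-fold above the lowest in naive, and 4.97-fold and 2.91-fold in the memory libraries. The subunits were therefore closest to each other in the library where all were highest. With the longest transcript as length, the level of Incenp in effector memory changed from above that of Aurkb (86.5 and 72.4 CPM per kb) to slightly below it (108.5 and 109.4).

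The 7 kinetochore genes among the 45 were higher in both memory libraries without exception. Cenpf, a large outer kinetochore protein (ENSMUSG00000026605.14, chromosome 1, 189640606 to 189688086), had 2 counts in naive and 43.5 and 344 CPM in the memory libraries, 605-fold (interval 167 to 4998) and 4781-fold (interval 1323 to 39487) above naive. Cenpe, the kinetochore kinesin that carries chromosomes to the spindle equator, was at 2.05, 31.2 and 320 CPM. Its ratio of 10.3 between the memory libraries (interval 9.64 to 10.9) overlapped in interval with those of Aurka and Bub1, and no other gene of the 45 exceeded 10. Cenpa, the histone H3 variant that marks the centromere (ENSMUSG00000029177.9, chromosome 5, 30666777 to 30674830), was at 16.3, 43.5 and 201 CPM. It was 2.67-fold above naive in central memory (interval 2.40 to 2.97), the smallest ratio of the 7 kinetochore genes there.

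The NDC80 complex is the microtubule-binding unit of the kinetochore, built of 4 subunits. Ndc80 stood at 4.85, 19.99 and 117 CPM. Nuf2, its direct partner (ENSMUSG00000026683.14, chromosome 1, 169497934 to 169531464), had 2 counts in naive and stood at 17.3 and 103 CPM in the memory libraries. Spc24 was at 1.44, 20.6 and 92.8 CPM, and Spc25 at 0.683, 11.5 and 56.0 CPM. Per kilobase of exon, Nuf2 was at 0.0113 in naive beside 0.747 for Ndc80, whereas in effector memory the same genes stood at 16.3 and 18.1. The 4 subunits lay within 2.94-fold of each other in central memory and 2.22-fold in effector memory per length.

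**Figure D3:**
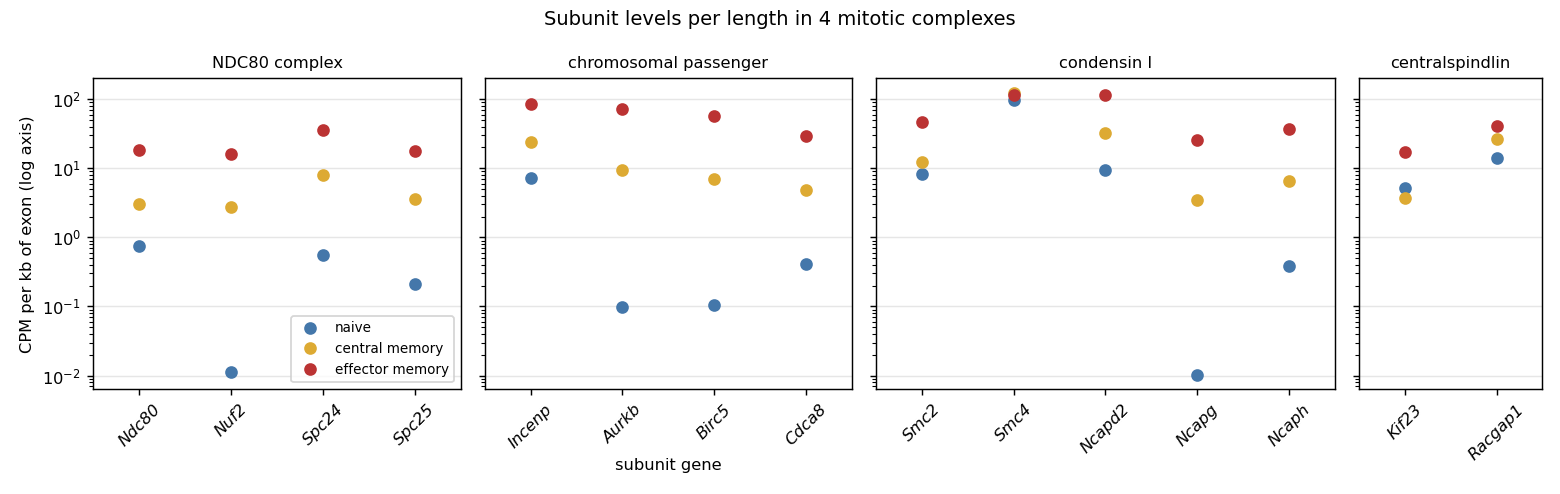
CPM per kilobase of exon (log axis) of the subunit genes of 4 complexes in naive (blue), central memory (yellow) and effector memory (red), 1 point per gene and library. Naive points scatter over orders of magnitude within the passenger complex and condensin I, where Incenp and Smc4 stand high and Aurkb and Ncapg low, while effector memory points of a complex lie within 4.54-fold of each other.

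Of the 5 kinesins, 4 were higher in central memory than in naive and all 5 in effector memory. Kif11, the motor Eg5 that pushes spindle poles apart, stood at 0.791, 59.0 and 362 CPM. Kif4, a chromosome-bound kinesin, was at 0.647, 19.4 and 121 CPM. Kif2c, the microtubule depolymerase MCAK, was at 0.216, 13.1 and 111 CPM. Those 3 genes were under 1 CPM in naive. Kif20a, a kinesin of the central spindle, was at 3.34, 25.99 and 154 CPM, but 29.3% of its exon bases are shared with Cdc23 on the other strand, and whether counting used strand is not stated. Kif23, the motor subunit of centralspindlin (ENSMUSG00000032254.10, chromosome 9, 61915905 to 61946774), was at 41.2, 29.03 and 136 CPM. It was the one gene of the 45 with a ratio under 1 in central memory against naive, 0.706 (interval 0.648 to 0.768), short of the 2-fold rule. In effector memory it was 3.31-fold above naive (interval 3.10 to 3.54).

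The spindle-associated genes had the largest median ratios to naive of any role, 102-fold in central memory and 644-fold in effector memory over 5 genes. Tpx2, which activates Aurora A on the spindle, stood at 0.827, 41.2 and 309.5 CPM. Nusap1, a microtubule bundler, was at 0.395, 40.2 and 254 CPM. Aspm, a spindle pole protein, had 2 counts in naive and stood at 35.6 and 206 CPM, 495-fold (interval 136.7 to 4090) and 2860-fold (interval 791 to 23620) above naive. Each was thus under 1 CPM in naive and above 200 in effector memory. Hmmr, which encodes a spindle protein also known as a hyaluronan receptor, had 0 counts in naive and was at least 151-fold and at least 1422-fold higher in the memory libraries, at 16.3 and 153 CPM. Prc1, which crosslinks the microtubules of the central spindle, was at 2.23, 34.2 and 187 CPM, with 11.1% of its exon bases shared with Rccd1 on the other strand.

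The 3 cytokinesis genes had the smallest role median ratios to naive, 5.26-fold in central memory and 27.02-fold in effector memory. Racgap1, the GTPase-activating subunit of centralspindlin (ENSMUSG00000023015.14, chromosome 15, 99620496 to 99651656), stood at 101, 191 and 287 CPM. It was 1.89-fold above naive in central memory (interval 1.81 to 1.98) and 1.51-fold higher in effector than in central memory (interval 1.46 to 1.55), neither of which reached 2-fold. Only against naive did effector memory pass, at 2.85-fold (interval 2.73 to 2.97), the smallest of the 45 ratios in that comparison. Anln (anillin), which organises the contractile ring, was at 0.863, 13.8 and 95.5 CPM, and Ect2, the RhoA activator recruited by centralspindlin, at 3.23, 17.0 and 87.4 CPM. Transcripts of Kif23 and Racgap1, the 2 subunits of centralspindlin, were thus both well detected in naive, at 5.21 and 14.3 CPM per kb. Ect2 and Anln stood at 0.601 and 0.0952 CPM per kb there.

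Among the genes of chromosome structure, Mki67 and Top2a had the highest CPM of the 45 in both memory libraries, without correction for length. Mki67, the surface coat protein Ki-67 used as a marker of dividing cells (ENSMUSG00000031004.8, chromosome 7, 135689784 to 135716361), stood at 2.62, 301.5 and 1819 CPM. Top2a, topoisomerase II alpha (ENSMUSG00000020914.17, chromosome 11, 98992943 to 99024189), was at 9.70, 274 and 1331 CPM. In condensin I, Ncapg, a regulatory subunit (ENSMUSG00000015880.13, chromosome 5, 45669919 to 45700546), had 2 counts in naive and stood at 24.8 and 179 CPM. Ncapd2, another regulatory subunit (ENSMUSG00000038252.13, chromosome 6, 125168007 to 125191701), was at 58.7, 201 and 714 CPM. Smc2, the ATPase shared by condensins I and II (ENSMUSG00000028312.19, chromosome 4, 52439243 to 52488260), was at 44.9, 67.9 and 254 CPM. Smc2 was 1.51-fold above naive in central memory (interval 1.41 to 1.62), under the 2-fold rule, and 3.74-fold higher in effector than in central memory (interval 3.58 to 3.92).

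The remaining condensin I subunits, which are not among the 45, filled in the same picture of uneven naive levels. Smc4, the partner ATPase, hardly varied, at 514, 650 and 599 CPM, and Ncaph, the subunit that closes the ring, stood at 1.65, 28.6 and 160 CPM. Per kilobase, Smc4 made up 84.6% of the summed level of the 5 subunits in naive, then 69.6% and 34.1% in the memory libraries, while Ncapg made up 0.00872%, 1.96% and 7.495%. In naive, the ATPases and Ncapd2 were thus well detected, beside 2 counts of Ncapg and 46 of Ncaph.

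The naive counts of the 45 genes came mainly from a few of them, without correction for length. Racgap1, Ncapd2, Smc2, Kif23 and Incenp held 76.7% of the summed CPM in naive, and with Cenpa and Mad2l1 84.8%. The 5 genes of highest CPM held 50.5% in central memory and 40.8% in effector memory, led there by Mki67 and Top2a. In naive, 24 genes were under 1 CPM, 12 were between 1 and 5 CPM and 9 reached 5 CPM. Of the 24, Pbk and Hmmr had 0 counts, and Cenpf, Nuf2, Aspm and Ncapg had 2 each, so their ratios to naive rest on very few reads.

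**Figure D4:**
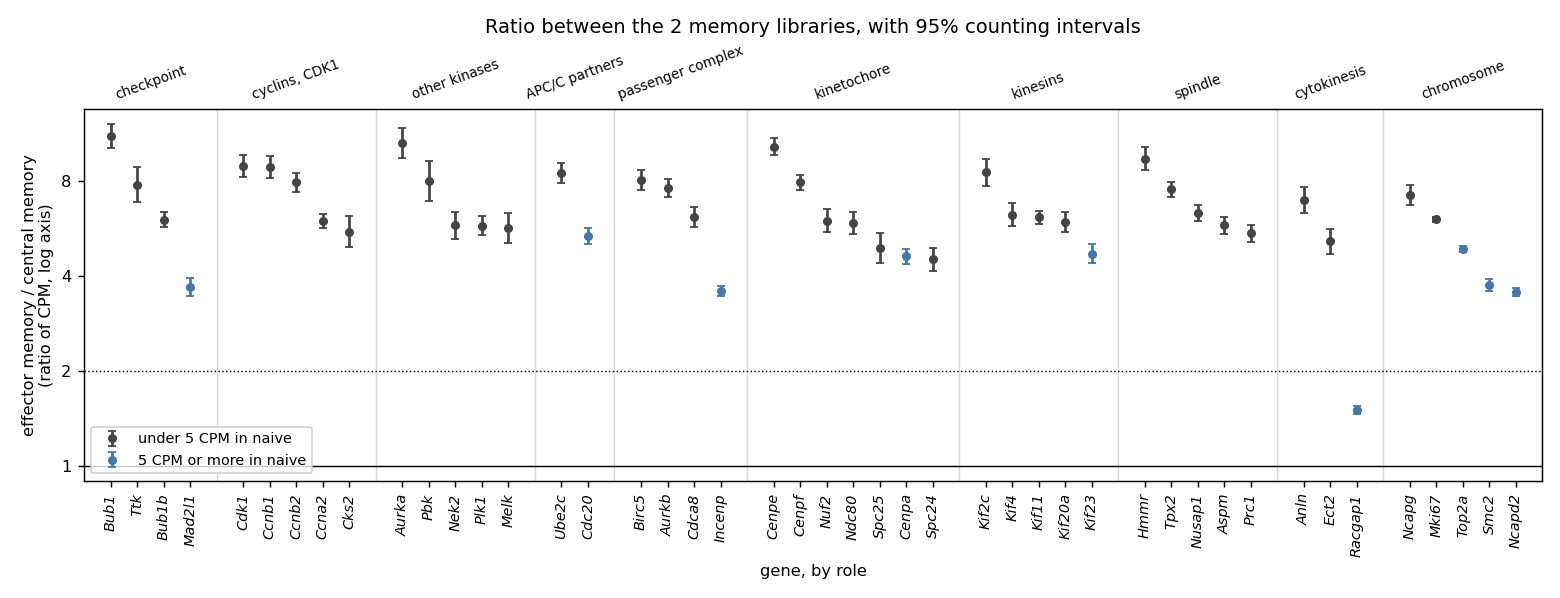
Ratio of CPM between effector and central memory (log axis) for the 45 genes by role, with 95% counting intervals; blue points are the 9 genes at 5 CPM or more in naive, and the dotted line marks 2-fold. Most genes lie between 4 and 10, the 5 genes under 4-fold are all blue, and Racgap1 alone falls under 2-fold, at 1.51.

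Between the memory libraries the genes moved over a narrow range. The level in central memory was between 9.02% and 66.4% of that in effector memory, with a median of 16.6%, and 40 of the 45 genes lay between 9% and 23%. Mad2l1, Incenp, Smc2 and Ncapd2 lay above these, at 27.1%, 27.8%, 26.7% and 28.1%, and Racgap1 at 66.4%. The median ratio of a role ran from 4.85 for chromosome structure to 7.92 for the cyclins, with overlapping ranges. The naive level, which does not enter this ratio, went with it: the 24 genes under 1 CPM in naive had a median ratio of 7.56 (range 4.89 to 11.1), the 12 between 1 and 5 CPM 5.90 (range 4.51 to 10.5), and the 9 at 5 CPM or more 3.74 (range 1.51 to 5.35). These are descriptions across genes of the same libraries, and genes are not replicates.

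Per kilobase of exon (union of all exons), the order of the genes changed between libraries. In naive the highest were Racgap1 at 14.3, Ncapd2 at 9.36, Smc2 at 8.19 and Incenp at 7.13 CPM per kb. Ncapd2 at 32.0, Top2a at 30.5 and Mki67 at 29.96 led in central memory, at almost the same level. In effector memory Mki67 at 181, Top2a at 148, Ccnb2 at 129 and Ncapd2 at 114 CPM per kb led, and Racgap1 was in place 19. Anln, at 1.52 and 10.5 CPM per kb, was the lowest in both memory libraries.

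A wider list of 120 further genes of mitosis ranged from genes that varied like the 45 to genes that hardly varied, with many in between. In central memory 40 of the 120 were higher than in naive and none was lower, in effector memory 75 were higher and 2 lower, and between the memory libraries 65 were higher in effector memory and none lower. Of all genes tested, 11.2%, 22.3% and 14.8% were called higher and 5.12%, 15.6% and 12.8% lower in these comparisons, and the counts of the lists below stand beside the same shares. The median log2 ratios of the 120 were 0.61, 1.82 and 1.23, beside 0.14, 0.06 and -0.06 over all genes. In effector memory against naive their lower and upper quartiles were 0.62 and 5.27.

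Of 13 further outer kinetochore genes, 11 were higher in effector memory than in naive. Kntc1, part of the complex that brings dynein to kinetochores, stood at 0.216, 28.98 and 196 CPM, and Ska1, which steadies microtubule attachment, at 0, 2.46 and 35.3 CPM. Mis12, a base of the outer kinetochore, was at 28.6, 40.2 and 52.0 CPM, and Zw10, which also serves in membrane traffic, at 56.9, 63.3 and 73.7 CPM, without reaching 2-fold. In the inner kinetochore 14 of 15 were higher in effector memory but 2 of 15 in central memory, where 8 reached the minimum of 5 CPM in that comparison. Cenpp stood at 0.0719, 1.45 and 19.4 CPM and Cenpk at 0.180, 2.15 and 21.6 CPM, whereas Cenpo was at 16.0, 23.1 and 33.7 CPM and Cenpq at 19.6, 20.96 and 28.1 CPM.

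Of 6 checkpoint partners outside the 45, 3 were higher and 1 lower in effector memory than in naive. Bub3, the constant partner of BUB1 and BUBR1, was named after its values were seen and was higher in effector memory but not in central memory; per kilobase it stood at 10.4, 18.8 and 23.9, beside 0.0330, 3.56 and 39.4 for Bub1. Mad1l1, which anchors MAD2 and stayed under 2-fold, was at 19.0, 29.2 and 34.5 CPM, and Mad2l1bp, which helps to take the MAD2 complex apart, at 21.2, 28.1 and 41.1 CPM. Sgo1, the protector of centromeric cohesion, was higher in both memory libraries, at 0.323, 9.80 and 72.5 CPM, as was Trip13, an ATPase that remodels MAD2, at 1.04, 5.67 and 43.9 CPM. Haspin, the histone H3 kinase of centromeres and also named after its values were seen, went the other way against naive, at 55.1, 27.9 and 27.3 CPM. It was called lower in effector memory, with a ratio of 0.495. Overlap with other genes was looked up only for exons of the 45 genes, so for Haspin it was not checked.

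Of 16 genes of the APC/C itself, 1 was higher in central memory and 4 in effector memory than in naive, near the 11.2% and 22.3% of all genes tested, and none was lower. Anapc1, its largest subunit, stood at 232, 270 and 255 CPM, and Cdc23 at 65.4, 82.4 and 59.5 CPM. Fzr1, the activator used after Cdc20, was 6.89-fold higher in effector memory than in naive, at 26.1, 71.6 and 180 CPM, and Ube2s, the chain-elongating enzyme, was at 34.1, 60.0 and 213 CPM. Transcripts of Anapc1 and Cdc23 were thus well detected in naive, as were those of Fzr1 and Ube2s, at 26.1 and 34.1 CPM. Cdc20 and Ube2c were at 5.32 and 0.431 CPM there. The protein complex was not measured.

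Ratios of condensin, cohesin and separase genes also ranged widely. Espl1 (separase) stood at 0.359, 38.1 and 207 CPM, and Cdca5 (sororin) at 0.503, 13.54 and 64.3 CPM, while the cohesin regulator Pds5b was at 142, 108 and 134 CPM. Of these 17 genes 4 were higher in central memory and 6 in effector memory than in naive, and Nipbl, the cohesin loader, was called lower in effector memory (named after its values were seen), at 461, 335 and 193 CPM.

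Among spindle motors and microtubule-associated proteins, 18 of 24 were higher in effector memory than in naive and 10 of 24 in central memory. Spag5 (astrin) had 2 counts in naive and stood at 35.4 and 240 CPM, and Kif14 2 counts and 14.6 and 96.4 CPM. The augmin subunits Haus2, at 24.1, 21.2 and 31.2 CPM, and Haus3, at 49.95, 49.7 and 65.8 CPM, stayed under 2-fold. Of the other augmin genes, named after their values were seen, Haus6 and Haus7 also stayed under 2-fold. Haus1, Haus4, Haus5 and Haus8 were 2.45-fold, 3.94-fold, 2.36-fold and 3.53-fold higher in effector memory than in naive. In entry and exit regulators, 11 of 14 were higher in effector memory and 7 in central memory: Cdc25c, a phosphatase that activates CDK1, was at 0.0719, 3.38 and 38.5 CPM, and Mastl, the Greatwall kinase, at 0.431, 6.90 and 48.6 CPM. Its substrates Arpp19 and Ensa were at 29.3, 32.4 and 43.4 CPM and at 134, 162 and 102 CPM. Cytokinesis genes outside the 45 were higher in 6 of 8 cases in each memory library, with Shcbp1 at 0.0719, 9.58 and 75.5 CPM and Depdc1a at 0, 5.75 and 59.8 CPM, beside Rhoa at 387, 297 and 460 CPM and Chmp4b at 186, 210 and 289 CPM.

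Of 7 regulators that transcribe mitotic genes, 2 were called higher in each memory library against naive, beside 11.2% and 22.3% of all genes tested. Foxm1 stood at 4.56, 39.0 and 153 CPM, and Mybl2, which encodes B-MYB, at 3.06, 18.03 and 111 CPM, 33.6-fold and 36.5-fold higher in effector memory than in naive. Of the MuvB core, shared by the repressor and the activator of these promoters, the genes named stayed under 2-fold: Lin9 was at 17.7, 13.3 and 16.0 CPM and Lin37 at 21.6, 36.1 and 32.3 CPM.

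**Figure D5:**
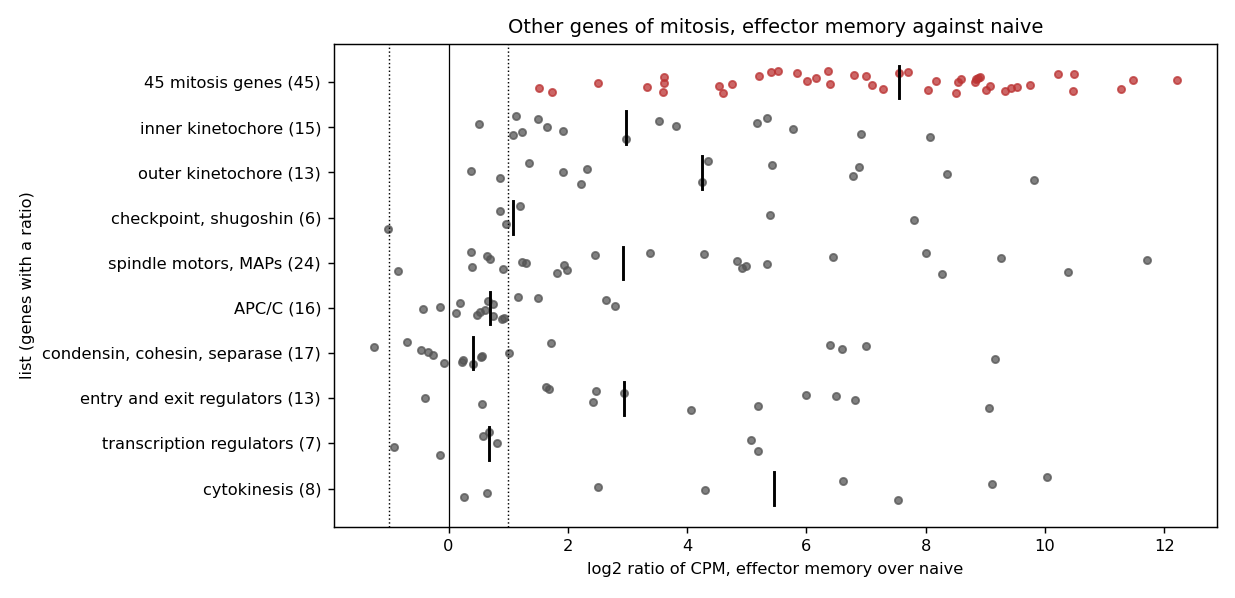
Log2 ratio of CPM between effector memory and naive for the 45 mitosis genes (red) and 9 lists of other mitosis genes (grey), 1 point per gene, with the median of each list as a black bar and 2-fold marked by dotted lines; genes with 0 naive counts enter at a bound of 3 counts. The 45 genes all lie right of the 2-fold line, while the APC/C, cohesin and transcription lists have medians near 0.70, 0.41 and 0.68. A few genes of the cohesin and transcription lists lie far to the right, whereas the APC/C list reaches 2.78.

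Over more than 10% of their exon bases, 6 of the 45 genes overlap exons of a gene on the other strand, where reads of the pair cannot be told apart if counting did not use strand: Kif20a with Cdc23, Ube2c with Tnnc2 (22.8%), Kif4 with Pdzd11 (15.1%), Ncapg with Lcorl (13.4%), Ccna2 with Exosc9 (12.5%) and Prc1 with Rccd1. The 45 genes lie on 17 chromosomes, 7 of them on chromosome 2 and 5 on chromosome 9.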

How the data were processed

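The values used are the authors' deposited raw read counts for each gene symbol, with a column each for naive, central memory and effector memory, matched to the samples by their abbreviations. Per the submitters' processing notes the tools were CASAVA, HISAT2 2.0.5 and featureCounts 1.5.0-p3 with mm10; for annotation, strandedness and multi-mapping the setting is not given in the sources used here. Counts were scaled with TMM factors (edgeR 4.0.16, R 4.3.3) of 1.04, 0.999 and 0.967. Ratios of CPM carry 95% Clopper-Pearson counting intervals; 0 counts enter as 3, which makes the ratio a bound. Lengths are unions of GENCODE M21 exons, where all 45 genes were found. Calls were tried on simulated Poisson counts with set fold differences. These hold no spread between replicates, so only the calling steps were checked. Named were all 45 genes, and per list of other genes the 2 with the largest and the 2 with the smallest absolute log2 ratio of effector memory to naive among those at 5 CPM or more in any library. The 45 genes, the lists and the rules were chosen with earlier results of these data known. Alternatives were total counts, DESeq2 1.42.0 and upper quartile scaling, other minimums and ratios, log2(CPM + 1), transcript length and a shorter promoter window. Intervals and figures were made in Python 3.11.15 with SciPy 1.17.1, pandas 2.3.3, NumPy 2.4.6 and matplotlib 3.10.9. Sgo2a, Trdc and Tcrg-C1 were not analysed here. Some items are not reported here.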

Additional observations from a re-analysis of the deposited data

How the results depend on the processing

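With 1 library a group, no library could be left out, and no paired analysis was possible because each group has 1 library. The counts of the 45 genes called higher stayed within 1.5 times of 42, 45 and 44 under each alternative run, apart from a minimum of 20 CPM, which left 25 in central memory against naive because 28 genes reach that level there. No gene of the 45 was called lower under any of them. That minimum left 18 of the other mitosis genes, and a ratio of at least 4 left 43 of them between the memory libraries. On log2(CPM + 1) the median of the 45 was 3.45 and 6.03 against naive, since the added 1 damps low naive values. Summed CPM with total counts, DESeq2 and upper quartile scaling was 373.1, 372.1 and 379.7 in naive, 2122, 2035 and 2053 in central memory, and 10901, 11395 and 11072 in effector memory. Scaling moved the median log2 ratio of all genes between 0.01 and 0.14 in central memory against naive, between -0.05 and 0.06 in effector memory against naive, and between -0.11 and 0.02 between the memory libraries. No ratio of the 45 genes changed its side of 1 under a scaling. With the longest transcript as length the median CPM per kb was 7.47 in central and 50.2 in effector memory, beside 4.55 and 36.1. Depth limits the 6 genes with 0 to 3 naive counts, whose ratios are bounds or have wide intervals.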
